A study of Mus musculus with 16 samples.

Results

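The 10 genes described here are markers of astrocytes, the glial cells that take up transmitter, buffer ions and water, and supply neurons with metabolites: Slc1a2, Slc1a3, Aldoc, Aldh1l1, Aqp4, Gja1, Gfap, S100b, Clu and Sox9. They were taken by symbol from a table of read counts for 55335 Ensembl genes. All 10 were found, each under 1 identifier, and all 10 passed the filter on low counts. RNA was measured in 16 libraries from neuronal cultures of mouse forebrain, made from perinatal animals and transduced with lentivirus, with 4 libraries in each of 4 groups. The groups carried an empty vector (Empty_Vector), a small-hairpin RNA (shRNA, the unmutated hairpin), that hairpin with 2 point mutations (shRNA_2bp) or that hairpin with 5 point mutations (shRNA_5bp). A small-hairpin RNA is processed by the cell into a short RNA that silences matching transcripts, and the series asks which changes a hairpin causes that do not depend on its target. The target and sequence of the hairpin, the promoter that drives it, and the strain and age in days of the animals were not given in the sources used here. The libraries of each group are numbered 1 to 4, but nothing says that they came from separate cultures. The p-values below therefore measure only the spread between these libraries, which may be technical.

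Astrocytes of the forebrain arise from radial glia around birth and mature over the weeks that follow. In neuronal cultures they are a minority whose number depends on the dissection, the age of the culture and any agent added against dividing cells. Their marker genes fall into groups by role: uptake of glutamate (Slc1a2, Slc1a3), metabolism (Aldoc, Aldh1l1), membrane channels (Aqp4, Gja1), the cytoskeleton and calcium binding (Gfap, S100b), secretion (Clu) and transcriptional control (Sox9). None of them is read in astrocytes alone in all settings. Clu and Slc1a2, for example, are also transcribed in some neurons. In bulk RNA, fewer cells of a type and less RNA per cell cannot be told apart.

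The libraries held between 33795369 and 49824569 counts. Levels are given as CPM, a gene's counts divided by the library's scaled total, with the TMM factors of edgeR that make libraries comparable. Neuronal markers dominated the cultures, as their label says: the summed level of 10 pan-neuronal genes was 5838 to 7273 CPM in the 16 libraries, against 544 to 1247 CPM for the 10 astrocyte markers. Markers of other glial and vascular cells were read at lower levels. The summed level of 10 microglial markers was 0.917 to 3.75 CPM and that of 7 endothelial markers 1.37 to 3.36 CPM, and that of 10 genes of the oligodendrocyte lineage 55.1 to 107 CPM. Of these last, Mbp was read at 23.2 to 76.0 CPM, Olig1 at 6.02 to 36.0 CPM and Cnp at 8.52 to 17.4 CPM, and Sox10, Mog and Mag at or below 0.0960 CPM in every library. One library stood apart in its mural and fibroblast markers. Library 3 of the 5-mutation hairpin held Col1a1, the main collagen gene of fibroblasts, at 58.2 CPM, and the summed level of its 7 mural and fibroblast markers was 130 CPM against 24.4 to 44.7 CPM in the other 15 libraries. In the other groups Col1a1 was also highest in library 3, at 6.16 CPM with the empty vector, 10.3 with the unmutated and 15.6 with the 2-mutation hairpin. Over all genes it was library 2 of the 5-mutation hairpin that differed most within a group. Its chi-square per degree of freedom was 24.2 against library 3 and 20.1 against library 1. Library 3 differed from libraries 1 and 4 by 7.01 and 9.11. Where leaving out library 3 of the 5-mutation hairpin changed the call of an astrocyte marker, or a count of astrocyte list genes called against the empty vector, both values are given. The noncoding gene Gm26917 took 5.85 to 11.5% of the counts, the most with the 2-mutation hairpin, and a fit without it is among the alternatives tried.

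Per kilobase of exon, Slc1a2 was the most abundant of the 10 markers with the empty vector, at 54.3 CPM per kilobase, followed by Aldoc at 21.4, Clu at 21.0, Gfap at 18.3 and Slc1a3 at 12.3. The levels of these last 4 overlapped from each to the next. Aldh1l1 at 4.72, Aqp4 at 3.92 and Sox9 at 3.39 formed a lower, overlapping group, and Gja1 at 1.62 and S100b at 0.793 CPM per kilobase lay below it without overlap. Slc1a2 also led with the unmutated hairpin, at 34.5 CPM per kilobase, and with the 5-mutation hairpin, at 29.9. With the 2-mutation hairpin the order at the top changed: Clu stood at 52.3 CPM per kilobase and Slc1a2 at 43.5, with no overlap between them. Aqp4 moved down to the ninth place in the same group, at 0.816 CPM per kilobase. S100b was the lowest of the 10 in all 4 groups, although its range met that of Gja1 with the 5-mutation hairpin.

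**Figure D1:**
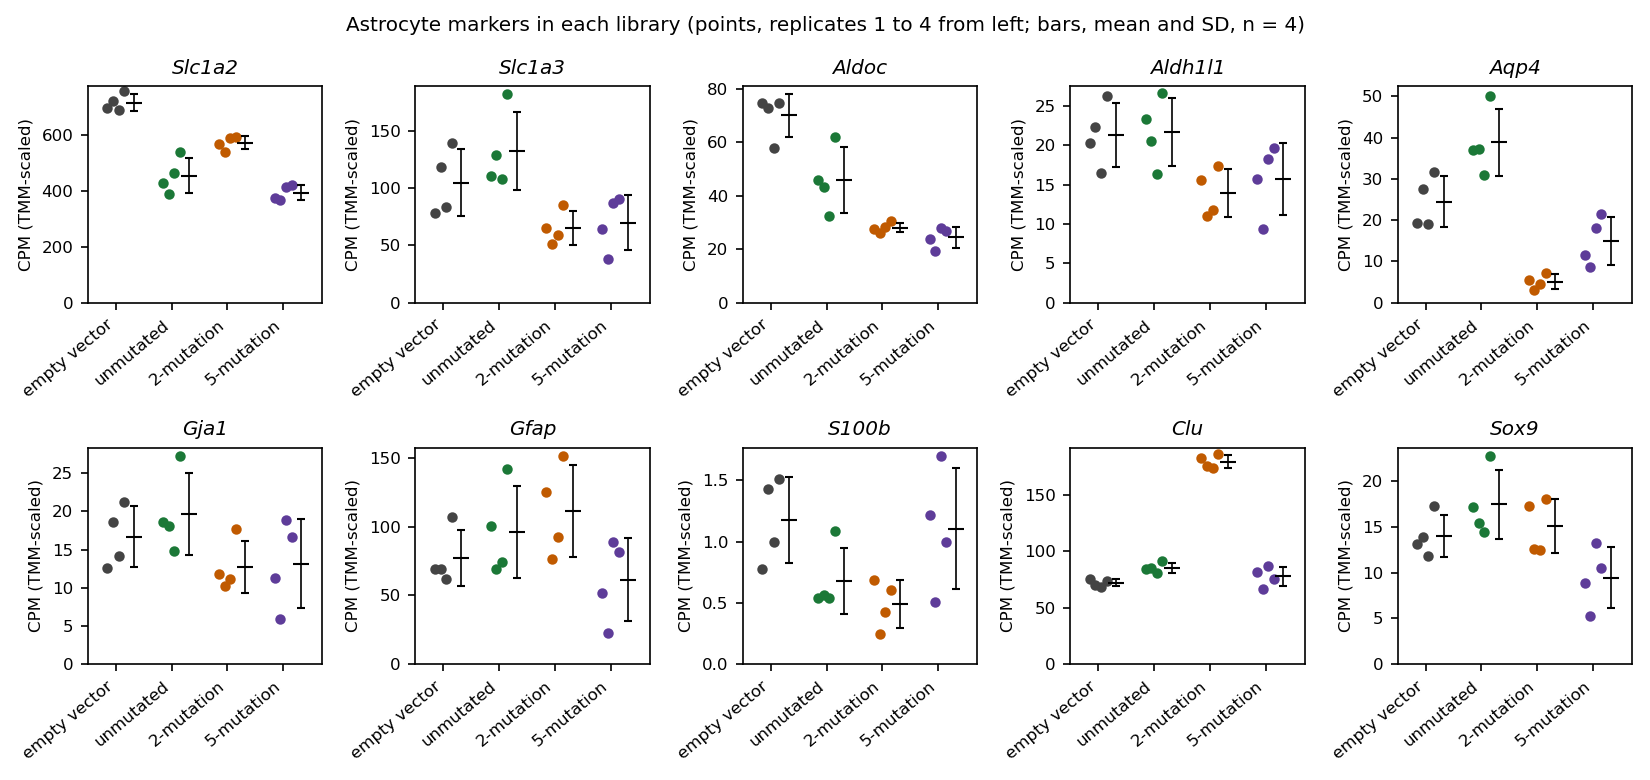
Level of each of the 10 astrocyte markers in CPM (TMM-scaled, linear axes from 0) in every library, with points for libraries 1 to 4 from left to right within a group and bars for the mean and SD of 4 libraries. Slc1a2 and Aldoc are lower on average with each hairpin than with the empty vector, Aqp4 is lowest with the 2-mutation hairpin, and Clu stands between 174 and 186 CPM there against 67.0 to 91.7 CPM in all other libraries.

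A single edgeR fit over all genes set each hairpin against the empty vector, and a gene is called changed at an adjusted p below 0.05. With the unmutated hairpin 3 of the 10 markers were called, 1 higher and 2 lower, where 40.3% of the 19479 genes tested were called. With the 2-mutation hairpin 6 of 10 were called, 1 higher and 5 lower, against 63.3% of all genes. With the 5-mutation hairpin 2 of 10 were called, both lower, against 54.9% of all genes. None was called higher there in this fit, by DESeq2 or by limma-voom, or had an unadjusted p below 0.05 in that direction. In this fit the markers were thus called no more often than genes in general. By limma-voom 4, 7 and 6 of 10 were called in the same order, against 40.4%, 63.2% and 55.2% of all genes. The median log2 fold change of the 10 markers in the edgeR fit was 0.24, -0.50 and -0.51, while the median over all genes tested was 0.01, -0.01 and 0.03. These 3 comparisons share the libraries of the empty vector. Aldoc and Slc1a2 were called lower in all 3, as were 5.85% of all genes tested. The groups compared did not overlap for 2, 5 and 2 of the 10 markers, and for 38.4%, 60.1% and 48.1% of all genes.

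**Figure D2:**
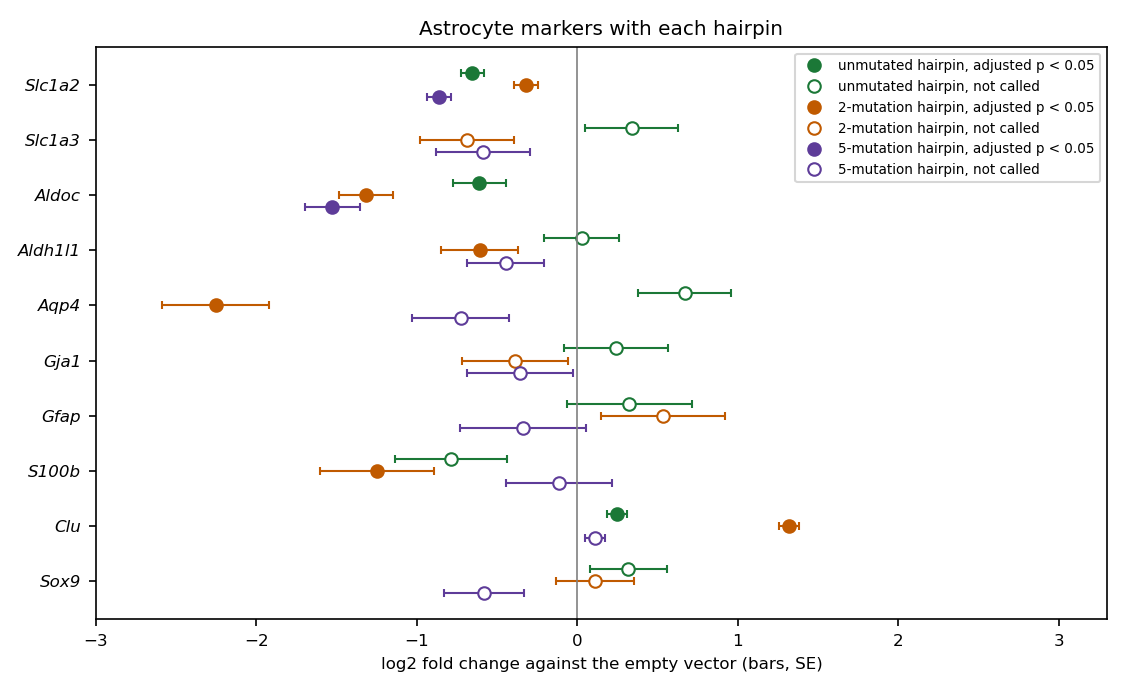
Log2 fold change of each marker with each hairpin against the empty vector, from the edgeR fit, with bars for the SE and filled points for an adjusted p below 0.05. Aldoc and Slc1a2 are filled and left of 0 with all 3 hairpins, and the widest gap between hairpins is that of Aqp4, at 0.67 with the unmutated and -2.25 with the 2-mutation hairpin.

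Slc1a2, which encodes GLT-1, the main glutamate transporter of the mature forebrain, fell with every hairpin. It was read at 694, 719, 686 and 754 CPM in the 4 libraries of the empty vector, at 427, 389, 462 and 536 CPM with the unmutated hairpin, at 568, 540, 586 and 592 CPM with the 2-mutation hairpin and at 373, 367, 411 and 419 CPM with the 5-mutation hairpin. Every hairpin library was below every library of the empty vector. On the log2 scale Slc1a2 changed by -0.65 (SE 0.07, edgeR adjusted p = 7.03e-07) for the unmutated, -0.32 (SE 0.07, edgeR adjusted p = 0.000798) for the 2-mutation and -0.86 (SE 0.07, edgeR adjusted p = 6.7e-09) for the 5-mutation hairpin. The hairpins also differed from one another. The 2-mutation group stood above both others without overlap, by a log2 difference of 0.33 over the unmutated hairpin (edgeR adjusted p = 0.000526) and 0.54 over the 5-mutation hairpin (edgeR adjusted p = 2.17e-06). The unmutated hairpin stood 0.21 above the 5-mutation hairpin (edgeR adjusted p = 0.0213), with overlapping libraries. That last call was lost without library 4 of the unmutated hairpin (0.12, edgeR adjusted p = 0.104) and without library 1 or 2 of the 5-mutation hairpin (0.18 in each case, edgeR adjusted p = 0.0673 and 0.0744). A fit of these groups alone lost it too (0.21, edgeR adjusted p = 0.0595). The antisense gene Gm13872 shares 189 exon bases with Slc1a2 on the other strand and held 24 counts over all 16 libraries.

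Slc1a3 encodes GLAST, the glutamate transporter that prevails in radial glia and young astrocytes, and it was not called against the empty vector with any hairpin in this fit. Its levels were 78.3, 119, 83.6 and 139 CPM in the empty vector group, 111, 129, 108 and 182 CPM with the unmutated hairpin, 64.8, 50.9, 59.4 and 85.3 CPM with the 2-mutation hairpin and 64.6, 37.8, 87.2 and 90.2 CPM with the 5-mutation hairpin. The unmutated hairpin was above both mutated ones without overlap. Its log2 difference was 1.03 (SE 0.29, edgeR adjusted p = 0.00795) over the 2-mutation and 0.93 (SE 0.29, edgeR adjusted p = 0.0163) over the 5-mutation hairpin, and the second call was lost without library 4 of the unmutated hairpin (0.74, edgeR adjusted p = 0.0577). Against the empty vector the 2-mutation hairpin gave -0.69 for Slc1a3 (SE 0.29, edgeR adjusted p = 0.0570), a difference that passed the test by DESeq2 (adjusted p = 0.0405) and limma-voom (adjusted p = 0.0201). The 5-mutation hairpin was called lower for Slc1a3 by limma-voom alone of these tools (-0.64, adjusted p = 0.0296). The transporters did not keep their proportion. The log2 ratio of Slc1a2 to Slc1a3 was 2.81 ± 0.34 (SD, n = 4) with the empty vector, 1.80 ± 0.26 with the unmutated hairpin, 3.16 ± 0.27 with the 2-mutation hairpin and 2.57 ± 0.50 with the 5-mutation hairpin. The unmutated hairpin lay below each of the other groups in every library, at 1.56 to 2.09, where the lowest library elsewhere was at 2.22.

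Aldoc encodes aldolase C, a glycolytic enzyme that marks astrocytes in the forebrain, and it fell with every hairpin. It was read at 74.6, 72.7, 57.9 and 74.6 CPM in the empty vector group, 45.8, 43.2, 32.2 and 61.9 CPM with the unmutated hairpin, 27.5, 26.0, 28.2 and 30.5 CPM with the 2-mutation hairpin and 23.7, 19.2, 27.8 and 26.6 CPM with the 5-mutation hairpin. The mutated hairpins were below every other library. The unmutated hairpin overlapped the empty vector, since its library 4 was above library 3 of the empty vector. Log2 fold changes against the empty vector were -0.61 (SE 0.17, edgeR adjusted p = 0.00958), -1.32 (SE 0.17, edgeR adjusted p = 1.12e-05) and -1.53 (SE 0.17, edgeR adjusted p = 3.9e-06) for the unmutated, 2-mutation and 5-mutation hairpins. The unmutated hairpin exceeded the 2-mutation hairpin by 0.71 (edgeR adjusted p = 0.00244) and the 5-mutation hairpin by 0.92 (edgeR adjusted p = 0.000452) on the log2 scale. The mutated hairpins differed by 0.21 (SE 0.17, edgeR adjusted p = 0.307), which did not pass the test.

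The sequences shown are those upstream of the start sites of Slc1a2 and Aldoc, the pair of markers called lower with all 3 hairpins. They are RefSeq windows on GRCm38.p6, each 250 bases long, read on the plus strand up to the base before the start site. Slc1a2 has 1 window, at chr2:102706188-102706437, inside the gene span of chr2:102658659-102790784 that GENCODE gives. Aldoc has 2 start sites and so 2 windows, at chr11:78322823-78323072 and chr11:78323948-78324197, with a gene span of chr11:78322968-78327781. Capitals mark a match to a motif. The motifs searched on both strands were that of STAT factors (TTCCNGGAA), through which cytokines act on astrocyte genes, and the half-site of nuclear factor I (TTGGCA), whose family takes part in astrocyte differentiation.
Slc1a2: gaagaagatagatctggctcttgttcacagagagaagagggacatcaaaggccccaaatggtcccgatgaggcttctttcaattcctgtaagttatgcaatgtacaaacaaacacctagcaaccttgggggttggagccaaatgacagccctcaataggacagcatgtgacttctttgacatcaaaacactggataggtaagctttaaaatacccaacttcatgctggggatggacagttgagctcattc
Aldoc, upstream start site: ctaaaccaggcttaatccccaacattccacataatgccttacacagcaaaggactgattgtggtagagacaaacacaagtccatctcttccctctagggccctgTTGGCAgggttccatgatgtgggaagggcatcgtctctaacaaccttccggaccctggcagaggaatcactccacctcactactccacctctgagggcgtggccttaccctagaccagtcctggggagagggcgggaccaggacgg
Aldoc, downstream start site: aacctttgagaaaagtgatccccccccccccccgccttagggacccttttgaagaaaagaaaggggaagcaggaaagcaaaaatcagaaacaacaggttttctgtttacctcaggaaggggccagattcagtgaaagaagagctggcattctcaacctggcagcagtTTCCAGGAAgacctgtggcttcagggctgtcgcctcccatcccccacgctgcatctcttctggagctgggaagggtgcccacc
The STAT motif was found in 0.913% of 32851 RefSeq promoter windows of this length, and the nuclear factor I half-site in 12.3%. The STAT match lay 83 to 75 bases before the downstream Aldoc start site. The half-site lay 146 to 141 bases before the upstream one. The Slc1a2 window held neither. Of the 8 windows found for 7 of the 10 markers, the only other match was a nuclear factor I half-site 19 to 14 bases before the start of S100b (window chr10:76253586-76253835). Windows for Clu, Sox9 and Aqp4 were not used here. A match is a stretch of letters and no measure of binding.

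Aldh1l1, the folate enzyme whose promoter is used to label astrocytes in mice, differed less. Its mean was 21.3 ± 4.09 CPM in the empty vector group, and 21.7 ± 4.36, 13.9 ± 3.04 and 15.7 ± 4.58 CPM for the unmutated, 2-mutation and 5-mutation hairpins (SD, n = 4). The libraries of all 4 groups overlapped, from 9.34 to 26.7 CPM. The 2-mutation hairpin was called lower than the empty vector by 0.61 on the log2 scale (SE 0.24, edgeR adjusted p = 0.0408) and lower than the unmutated hairpin by a difference of 0.63 (SE 0.24, edgeR adjusted p = 0.0335). Both calls were close to the threshold. The first was lost when any of libraries 1, 2 and 4 of the empty vector or 1, 2 and 3 of the 2-mutation hairpin was left out, with log2 fold changes of -0.66 to -0.49 and edgeR adjusted p between 0.0523 and 0.117 for Aldh1l1. The second was lost without library 1 or 4 of the unmutated or 2 or 3 of the 2-mutation hairpin, with Aldh1l1 differences of 0.52 to 0.60 and edgeR adjusted p between 0.0720 and 0.0994. By limma-voom, Aldh1l1 was also called lower with the 5-mutation hairpin than with the empty vector (-0.50, adjusted p = 0.0426) and the unmutated hairpin (a difference of 0.53, adjusted p = 0.0315). A noncoding gene on the same strand, Gm45901, shares 105 exon bases with Aldh1l1 and held 36 counts in all.

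The water channel gene Aqp4, whose protein sits in the astrocyte endfeet around vessels, varied more between groups than any other of the 10 markers. It was read at 19.4, 27.6, 19.1 and 31.6 CPM in the empty vector group, 37.0, 37.3, 30.8 and 50.1 CPM with the unmutated hairpin, 5.48, 3.05, 4.61 and 7.19 CPM with the 2-mutation hairpin and 11.5, 8.59, 18.2 and 21.4 CPM with the 5-mutation hairpin. All 2-mutation libraries were below all others. The unmutated hairpin was above all mutated-hairpin libraries and overlapped the empty vector. Against the empty vector, Aqp4 fell 4.77-fold with the 2-mutation hairpin (log2 -2.25, SE 0.33, edgeR adjusted p = 4.83e-05). Its log2 fold changes of 0.67 with the unmutated (SE 0.29, edgeR adjusted p = 0.0870) and -0.73 with the 5-mutation hairpin (SE 0.30, edgeR adjusted p = 0.0579) did not pass the test in this fit, nor by DESeq2. Both were called for Aqp4 by limma-voom (0.68, adjusted p = 0.0123, and -0.82, adjusted p = 0.00650) and by edgeR with the library number as a block (adjusted p = 0.0320 and 0.0197). Between hairpins, the unmutated one was 7.57-fold above the 2-mutation (edgeR adjusted p = 3.76e-06) and 2.63-fold above the 5-mutation hairpin (edgeR adjusted p = 0.00141), and the 5-mutation was 2.88-fold above the 2-mutation hairpin (edgeR adjusted p = 0.00129). Without library 4 of the 5-mutation hairpin, its Aqp4 was called lower than with the empty vector (-0.96, edgeR adjusted p = 0.0214).

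Gja1 encodes connexin 43, the protein of the gap junctions that couple astrocytes. It was called in none of the 6 comparisons in this edgeR fit, with unadjusted p of at least 0.0767, nor by DESeq2. By limma-voom, Gja1 was called higher with the unmutated than with the 2-mutation (0.62, adjusted p = 0.0496) and the 5-mutation hairpin (0.74, adjusted p = 0.0250). Its mean was 16.7 ± 3.99 CPM in the empty vector group, and 19.7 ± 5.35, 12.7 ± 3.38 and 13.2 ± 5.77 CPM for the unmutated, 2-mutation and 5-mutation hairpins (SD, n = 4), and its libraries ran from 5.94 to 27.3 CPM with overlap between all groups. The channel genes thus parted from each other. The log2 ratio of Aqp4 to Gja1 was 0.55 ± 0.08 with the empty vector, 0.99 ± 0.08 with the unmutated hairpin, -1.35 ± 0.27 with the 2-mutation hairpin and 0.22 ± 0.28 with the 5-mutation hairpin (SD, n = 4). In this ratio the 2-mutation libraries, at -1.74 to -1.11, and the unmutated libraries, at 0.88 to 1.06, stood clear of all others.

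Gfap, the intermediate filament gene that rises in reactive astrocytes, was also called in none of the 6 comparisons in this edgeR fit. It was read at 69.3, 69.4, 62.1 and 107 CPM in the empty vector group, 101, 69.0, 74.3 and 142 CPM with the unmutated hairpin, 125, 76.6, 92.8 and 151 CPM with the 2-mutation hairpin and 52.1, 22.9, 89.1 and 81.5 CPM with the 5-mutation hairpin. All groups overlapped. The largest of its 6 differences, 0.87 on the log2 scale between the mutated hairpins (SE 0.39, edgeR adjusted p = 0.0662), passed the test without library 3 of the 5-mutation hairpin (1.11, edgeR adjusted p = 0.0357) and without library 2 of the 2-mutation hairpin (1.02, edgeR adjusted p = 0.0496). It was the only one with an unadjusted p below 0.05 for Gfap, and DESeq2 (0.88, adjusted p = 0.0398) and limma-voom (1.02, adjusted p = 0.00890) called it too. limma-voom also called Gfap higher with the unmutated than with the 5-mutation hairpin (0.80, adjusted p = 0.0450). Relative to Aldh1l1, Gfap was highest with the 2-mutation hairpin: the log2 ratio was 2.98 ± 0.13 there, with 2.80 as the lowest library, against 1.84 ± 0.17 with the empty vector, 2.11 ± 0.28 with the unmutated and 1.84 ± 0.43 with the 5-mutation hairpin (SD, n = 4). The highest library of those 3 groups was at 2.42.

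S100b, which encodes a calcium-binding protein of astrocytes and some oligodendrocyte precursors, was the least abundant marker, with 10 to 63 counts per library. Its levels were 0.775, 1.43, 0.994 and 1.51 CPM in the empty vector group, 0.539, 0.561, 0.538 and 1.08 CPM with the unmutated hairpin, 0.683, 0.248, 0.423 and 0.601 CPM with the 2-mutation hairpin and 1.22, 0.510, 1.70 and 0.994 CPM with the 5-mutation hairpin. The 2-mutation hairpin lay below the empty vector without overlap. S100b fell by 1.25 on the log2 scale with it (SE 0.36, edgeR adjusted p = 0.00464), and was lower there than with the 5-mutation hairpin by a difference of 1.13 (SE 0.36, edgeR adjusted p = 0.00852) with overlapping libraries. The unmutated hairpin gave -0.79 (SE 0.35, edgeR adjusted p = 0.0788), which passed the test without its library 4 (-1.10, edgeR adjusted p = 0.0222) or library 1 of the empty vector (-0.94, edgeR adjusted p = 0.0491), and in a fit of these groups alone (edgeR adjusted p = 0.0298). The difference of -0.67 between the unmutated and 5-mutation hairpins (edgeR adjusted p = 0.109) passed without library 4 of the former (-0.99, edgeR adjusted p = 0.0289) or library 2 of the latter (-0.93, edgeR adjusted p = 0.0151). S100b lies opposite Dip2a without shared exon bases.

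Clu, at chr14:65968483-65981547, encodes clusterin, a secreted chaperone and lipid carrier, and was the only one of the 10 markers called higher than with the empty vector in this edgeR fit. It was read at 75.4, 70.6, 68.4 and 74.1 CPM in the empty vector group, 84.5, 85.1, 81.1 and 91.7 CPM with the unmutated hairpin, 183, 176, 174 and 186 CPM with the 2-mutation hairpin and 81.5, 67.0, 87.3 and 75.5 CPM with the 5-mutation hairpin. The 2-mutation libraries were far above all others and close to one another. Clu rose 2.49-fold with the 2-mutation hairpin (log2 1.32, SE 0.06, edgeR adjusted p = 4.32e-14) and 1.19-fold with the unmutated hairpin (log2 0.25, SE 0.06, edgeR adjusted p = 0.00254), both without overlap with the empty vector. The 5-mutation hairpin gave 0.11 (SE 0.06, edgeR adjusted p = 0.141), which passed the test without its library 2 (0.18, edgeR adjusted p = 0.00573). The 2-mutation hairpin exceeded the unmutated one 2.10-fold (edgeR adjusted p = 1.16e-12) and the 5-mutation one 2.31-fold (edgeR adjusted p = 1.11e-13). The unmutated hairpin exceeded the 5-mutation one by 0.14 on the log2 scale (edgeR adjusted p = 0.0600), and this passed the test without library 3 of the unmutated (0.16, edgeR adjusted p = 0.0391) or library 1 or 3 of the 5-mutation hairpin (0.16 and 0.20, edgeR adjusted p = 0.0485 and 0.00587). In the group where Clu was highest, Aqp4, Aldoc, S100b, Slc1a2 and Aldh1l1 were called lower than with the empty vector.

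Sox9, a transcription factor of glial progenitors and astrocytes, was not called against the empty vector with any hairpin in this edgeR fit. It was read at 13.1, 13.9, 11.8 and 17.2 CPM in the empty vector group, 17.2, 15.4, 14.4 and 22.8 CPM with the unmutated hairpin, 17.2, 12.5, 12.5 and 18.1 CPM with the 2-mutation hairpin and 8.85, 5.30, 13.2 and 10.5 CPM with the 5-mutation hairpin. The unmutated hairpin was above the 5-mutation hairpin without overlap, by 0.90 on the log2 scale (SE 0.25, edgeR adjusted p = 0.00700). The 2-mutation hairpin exceeded the 5-mutation hairpin by 0.69 (SE 0.25, edgeR adjusted p = 0.0244), a Sox9 call lost without library 1 or 4 of the former or library 1 or 2 of the latter (0.49 to 0.66, edgeR adjusted p between 0.0571 and 0.0705). A fit of these groups alone lost this call too (0.68, edgeR adjusted p = 0.0583). With the 5-mutation hairpin the difference from the empty vector was -0.58 (SE 0.25, edgeR adjusted p = 0.0641). It was called for Sox9 by DESeq2 (-0.59, adjusted p = 0.0485), by limma-voom (-0.68, adjusted p = 0.0124) and by edgeR with the library number as a block (adjusted p = 0.0346). Without library 3, the one rich in collagen transcripts, Sox9 was called lower (-0.78, edgeR adjusted p = 0.0193).

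The hairpins were also compared with one another over all 10 markers. The unmutated hairpin was higher than the 2-mutation hairpin for 4 markers (Aqp4, Slc1a3, Aldoc and Aldh1l1) and lower for 2 (Clu and Slc1a2), where 62.7% of all genes tested were called. It was higher than the 5-mutation hairpin for 5 markers (Aqp4, Slc1a3, Aldoc, Sox9 and Slc1a2) and lower for none, also by DESeq2, limma-voom and at an unadjusted p below 0.05, where 55.3% of all genes were called, 26.8% higher and 28.5% lower. Between the mutated hairpins, 3 markers were higher with the 2-mutation hairpin (Clu, Sox9 and Slc1a2) and 2 were higher with the 5-mutation hairpin (Aqp4 and S100b), where 65.9% of all genes were called. The median log2 difference of the markers was 0.54, 0.63 and 0.09, and that of all genes 0.02, -0.03 and -0.05. Groups did not overlap for 5, 4 and 3 markers in this order, and for 59.3%, 46.7% and 58.9% of all genes.

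Within groups, most astrocyte markers spread more widely than neuronal genes, and they moved by library. The median coefficient of variation of the 10 markers was 21.6% in the empty vector group, and 23.6%, 22.1% and 34.8% for the unmutated, 2-mutation and 5-mutation hairpins. It was 3.60 to 4.67% for the 10 pan-neuronal genes and 7.34 to 10.3% for all genes tested. Library 4 was the highest of its group for 8 of the 10 markers with the empty vector, for all 10 with the unmutated hairpin and for 9 with the 2-mutation hairpin. With the 5-mutation hairpin library 3 was highest for 6 markers and library 4 for the other 4, and library 2 was lowest for all 10, with a median deviation of -0.73 on the log2 scale from the group mean. The lowest library was number 3 for 7 and 8 markers with the empty vector and the unmutated hairpin, and number 2 for 8 markers with the 2-mutation hairpin. The summed level of the 10 pan-neuronal genes in the library numbered 4 was 7273, 5843, 6823 and 6944 CPM in the 4 groups, where the groups' ranges were 6852 to 7273, 5838 to 6036, 6400 to 6823 and 6482 to 6944 CPM. The part of this shared movement in the comparisons above was not tested. Slc1a2 and Clu spread least, and were the markers with the smallest SE.

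**Figure D3:**
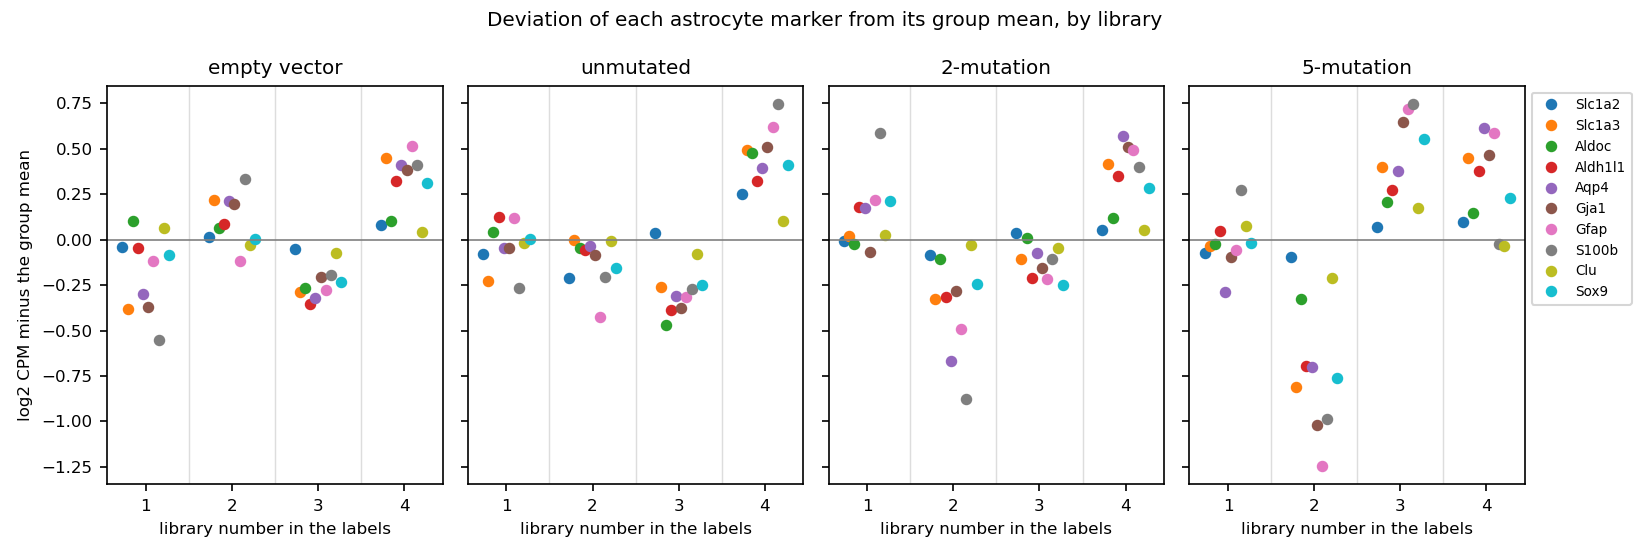
Deviation of each astrocyte marker from its group mean, in log2 CPM, for libraries 1 to 4 of each group (colours, genes). Most markers of a library move together, with library 4 above the mean for all 10 markers in the first 3 groups and library 2 of the 5-mutation hairpin below it for all 10, while Slc1a2 and Clu vary least within groups.

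Other astrocyte genes were read from lists. Of 26 genes of astrocyte homeostasis (transport, metabolism, adhesion and signalling genes of resting astrocytes, none of them among the 10), 25 were tested and the connexin gene Gjb6 was at or below 0.144 CPM in every library. With the unmutated hairpin 3 of the 25 were called higher and 2 lower, where 20.8% of all genes were higher and 19.5% lower. Those higher were Chrdl1, a secreted antagonist of bone morphogenetic proteins (0.94, edgeR adjusted p = 0.000839), Ntsr2, a neurotensin receptor (0.52, edgeR adjusted p = 0.00264), and Mlc1, a membrane protein of astrocyte junctions (0.71, edgeR adjusted p = 0.0475). Those lower were Sparcl1, which encodes the secreted protein hevin (-0.32, edgeR adjusted p = 0.000484), and Slc6a11, which encodes a GABA transporter (-0.16, edgeR adjusted p = 0.0111). The median log2 fold change of the list was 0.27. When each library was left out in turn, 2 to 4 were higher and 2 to 3 lower. The call of Mlc1 was close to the threshold. Mlc1 was named after its values were seen.

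With the 2-mutation hairpin 13 of the 25 homeostasis genes fell and 1 rose, where 30.8% of all genes fell and 32.5% rose, and the list's median log2 fold change was -0.72. Slc6a11 fell from 102 ± 4.55 to 27.8 ± 0.753 CPM (SD, n = 4, log2 -1.87, edgeR adjusted p = 6.83e-18), and Atp1b2, a sodium pump subunit, from 198 ± 11.3 to 98.5 ± 7.22 CPM (log2 -1.01, edgeR adjusted p = 5.99e-13). Cbs, an enzyme of sulphur amino acid metabolism, gave -1.14 (edgeR adjusted p = 4.45e-07) and Cldn10, a claudin, -2.06 (edgeR adjusted p = 3.3e-06). The gene that rose was Sparcl1 (0.26, edgeR adjusted p = 0.00138). With the 5-mutation hairpin 17 of 25 fell and 1, Ntsr2, rose (0.53, edgeR adjusted p = 0.00123), where 26.5% of all genes fell and 28.4% rose, with a median of -0.87. Without its library 3, 18 fell and 1 rose. Without its library 2, 15 fell and 1 rose, with a median of -0.73. Without library 4 of the empty vector, 14 fell and 1 rose, with a median of -0.75. Atp1b2 (-0.87, edgeR adjusted p = 1.28e-11), Slc6a11 (-0.74, edgeR adjusted p = 3.25e-11), Sparcl1 (-0.62, edgeR adjusted p = 7.81e-08) and Cldn10 (-1.61, edgeR adjusted p = 6.38e-05) had the smallest p. Atp1b2 and Sparcl1 are transcribed in neurons as well.

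Between hairpins, 20 of the 25 homeostasis genes were higher with the unmutated than with the 2-mutation hairpin and 1, Sparcl1, was lower (-0.59, edgeR adjusted p = 1.09e-07), where 31.2% of all genes were higher and 31.5% lower. Leaving out each library in turn gave 16 to 21 higher and 1 lower. Against the 5-mutation hairpin, where 26.8% of all genes were higher and 28.5% lower, 21 were higher and none lower by edgeR, nor by DESeq2 or limma-voom, and none of the other 4 had an unadjusted p below 0.05. The medians were 1.04 and 1.16 on the log2 scale. Between the mutated hairpins 5 were higher and 5 lower with 2 mutations, where 32.3% of all genes were higher and 33.6% lower, with a median of 0.02. Kcnj10, which encodes the potassium channel Kir4.1, was 2.17 higher on the log2 scale with 2 mutations (edgeR adjusted p = 4.2e-05), and Ntsr2 1.39 higher with 5 (edgeR adjusted p = 7.5e-09). Both were chosen after their values were seen.

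**Figure D4:**
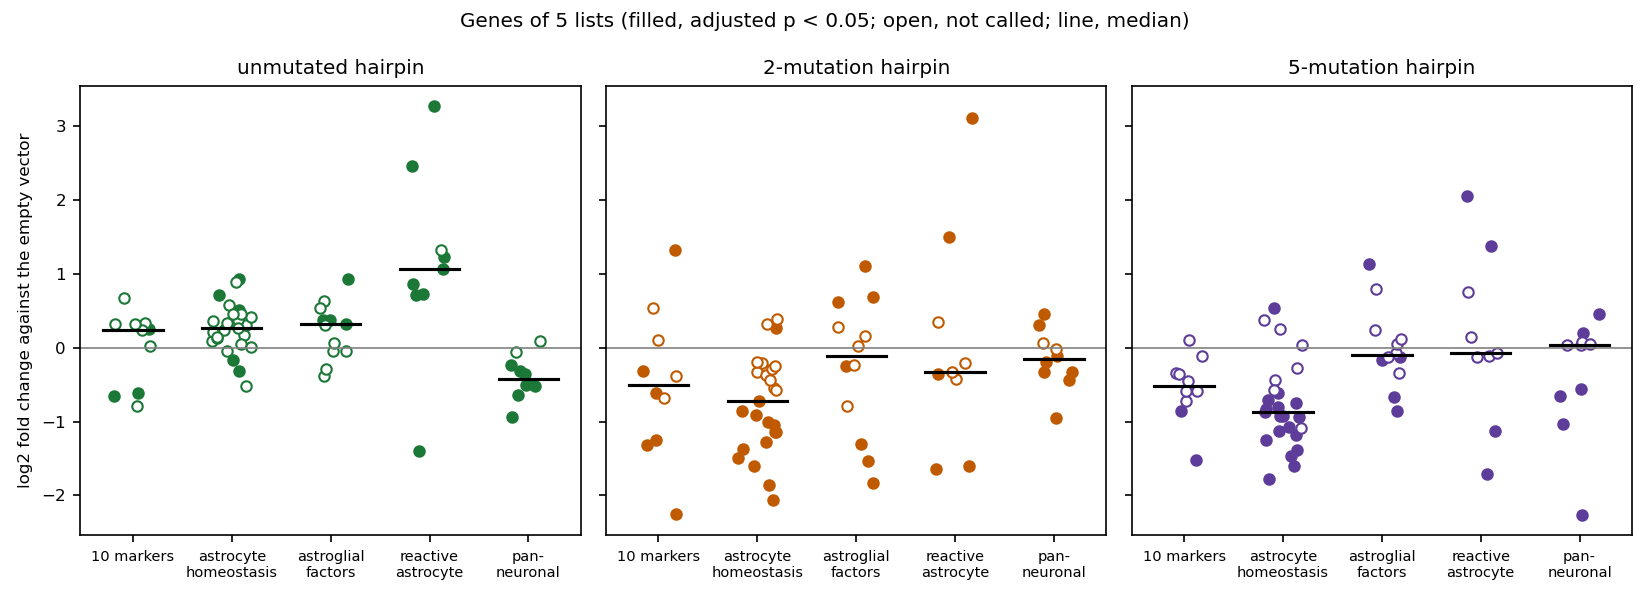
Log2 fold change against the empty vector of every tested gene in 5 lists, 1 panel for each hairpin, with filled points for an edgeR adjusted p below 0.05 and lines for the median. The homeostasis genes lie mostly below 0 with the mutated hairpins (medians -0.72 and -0.87) and around 0.27 with the unmutated one, where the reactive astrocyte genes have a median of 1.06.

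The shares of all genes called higher and lower were those given above: 20.8% and 19.5% with the unmutated, 32.5% and 30.8% with the 2-mutation and 28.4% and 26.5% with the 5-mutation hairpin. Of 12 transcription and signalling factors of the astroglial lineage, all tested, 4 were higher with the unmutated hairpin in the edgeR fit reported. None was lower in that fit, nor at an unadjusted p below 0.05, by DESeq2 or by limma-voom. The 4 were Stat3, the mediator of cytokine signals (0.32, edgeR adjusted p = 4.06e-06), the nuclear factor I genes Nfib (0.37, edgeR adjusted p = 0.000209) and Nfia (0.38, edgeR adjusted p = 0.00108), and Id3, an inhibitor of basic helix-loop-helix factors (0.93, edgeR adjusted p = 0.0395). For the unmutated hairpin, 3 to 6 were higher and none lower when each library was left out in turn. With the 2-mutation hairpin 3 rose and 4 fell. Nfib fell from 243 ± 16.4 to 84.2 ± 2.55 CPM (SD, n = 4, log2 -1.53, edgeR adjusted p = 2.28e-13) while its relative Nfix rose from 532 ± 46.0 to 859 ± 65.0 CPM (log2 0.69, edgeR adjusted p = 5.44e-09). Stat3 rose there by 0.61 (edgeR adjusted p = 4.84e-11), and Hes5, a target of Notch, gave -1.83 (edgeR adjusted p = 7.81e-07). With the 5-mutation hairpin 1 rose and 4 fell: Hes5 rose by 1.13 (edgeR adjusted p = 6.25e-05), and Sox2 (-0.85, edgeR adjusted p = 0.00019), Nfix (-0.17, edgeR adjusted p = 0.0301), Stat3 (-0.12, edgeR adjusted p = 0.0252) and Sox21 (-0.67, edgeR adjusted p = 0.0435) fell. These counts moved with single libraries: 1 rose and 1 fell without library 4 of the empty vector, and for the 5-mutation hairpin 2 rose and 2 fell without its library 1, 3 rose and 1 fell without its library 2, and 1 rose and 3 fell without its library 3. The Nfi genes, Stat3 and Zbtb20 of this list are transcribed in neurons too.

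Of 12 genes known to rise in reactive astrocytes, 9 were tested. With the unmutated hairpin 7 rose and 1 fell, where 20.8% of all genes rose and 19.5% fell, with a median log2 fold change of 1.06. Cp, which encodes the copper-binding ferroxidase ceruloplasmin, went from 3.60 ± 0.608 to 19.9 ± 2.96 CPM (log2 2.46, edgeR adjusted p = 0.000477), Lcn2, an iron-carrier protein of acute inflammation, from 0.274 ± 0.125 to 2.63 ± 1.60 CPM (log2 3.27, edgeR adjusted p = 1.54e-06), and Serpina3n, a protease inhibitor, from 13.4 ± 1.54 to 24.5 ± 5.29 CPM (log2 0.87, edgeR adjusted p = 0.000891; SD, n = 4). Cd44, a hyaluronan receptor, fell from 24.5 ± 1.16 to 9.34 ± 1.5 CPM (log2 -1.39, edgeR adjusted p = 3.38e-07). With the 2-mutation hairpin 2 rose and 3 fell, near the shares of 32.5% and 30.8% of all genes: Vim, the intermediate filament vimentin, rose from 60.7 ± 7.80 to 171 ± 30.6 CPM (log2 1.49, edgeR adjusted p = 9.7e-06), while Osmr, a cytokine receptor, gave -1.60 (edgeR adjusted p = 0.00395), Lcn2 -1.64 (edgeR adjusted p = 0.0249) and Cd44 -0.35 (edgeR adjusted p = 0.0258). Lcn2 lay at only 0.0248 to 0.107 CPM with the 2-mutation hairpin and 0.144 to 0.417 CPM with the empty vector, so its fall there rests on few counts. Without library 2 of the empty vector or of the 2-mutation hairpin, 2 of 10 tested rose and 1 fell. With the 5-mutation hairpin 2 rose and 2 fell, again near the shares of all genes (28.4% and 26.5%), with Cd44 at -1.71 (edgeR adjusted p = 1.19e-08), Serpina3n at -1.13 (edgeR adjusted p = 0.000102) and Lcn2 at 1.38 (edgeR adjusted p = 0.0111). Of 10 then tested, 1 rose and 2 fell without library 2 or 3 of the empty vector or library 4 of the 5-mutation hairpin, and 1 rose and 3 fell without library 3 of the latter. The chaperone gene Hspb1 was the other gene called higher with each mutated hairpin, and no fold is given because its empty vector libraries lay between 0 and 0.144 CPM. Gfap, often listed with these genes, was not called against the empty vector with any hairpin in the edgeR fit reported.

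Genes of other cell types were called beside these lists, where 40.3%, 63.3% and 54.9% of all genes were called with the unmutated, 2-mutation and 5-mutation hairpins. Of the 10 pan-neuronal genes, none was higher in the edgeR fit reported, also at an unadjusted p below 0.05, and 8 were lower with the unmutated hairpin, 2 were higher and 6 lower with the 2-mutation hairpin, and 2 were higher and 4 lower with the 5-mutation hairpin. Without library 4 of the empty vector, 1 was higher and 8 lower with the unmutated hairpin. Of 10 genes of radial glia and dividing progenitors, 2, 3 and 2 were higher in the same order, and 1, 1 and 4 were lower. The 2 higher with the unmutated hairpin became 0 without library 3 of the empty vector. Their summed level was 298 ± 45.2 CPM in the empty vector group and 161 ± 40.1 CPM with the 5-mutation hairpin (SD, n = 4). The 7 mural and fibroblast genes had no call with the unmutated hairpin by edgeR (1, Lum, had an unadjusted p below 0.05, at -1.44), 2 higher and 1 lower with the 2-mutation hairpin, and 4 higher and 1 lower with the 5-mutation hairpin, or 3 higher and 2 lower without its library rich in collagen transcripts. Of 7 tested genes of the oligodendrocyte lineage, 4 were higher with the unmutated hairpin and none lower by edgeR, also at an unadjusted p below 0.05, 1 was higher and 2 lower with the 2-mutation hairpin, and 2 were higher and 2 lower with the 5-mutation hairpin. The summed level of the ependymal and choroid plexus genes ran from 9.61 to 119 CPM, with overlap between all groups. Ttr, the most abundant of them, ran from 1.10 to 112 CPM. The sum was lowest in library 2 of every group, at 11.1, 15.1, 18.7 and 9.61 CPM for the empty vector, unmutated, 2-mutation and 5-mutation hairpins. The part of these cell types in the astrocyte results was not tested.

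The genes whose levels followed a marker most closely were found for the 3 markers with the widest range of group means, as the smallest root mean square difference of centred log2 CPM over the 16 libraries, among 10719 protein-coding genes. Nearest to Aqp4 were Slco1c1 (0.38), Slc7a11 (0.39) and Slc38a3 (0.41), where Aqp4 itself varied by 1.17 on the same scale. Nearest to Aldoc were Ppp1r3c (0.16), Megf11 (0.20) and Heg1 (0.23), where Aldoc varied by 0.64. Nearest to Clu were Mfsd13a (0.099), Hadhb (0.10) and Abcg1 (0.11), where Clu varied by 0.53. The points of these comparisons share libraries and depth, so the distances describe these 16 libraries only.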

How the data were processed

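RNA of 16 libraries was depleted of ribosomal RNA and sequenced from directional libraries, per the labels' protocols. The authors made raw counts per gene with featureCounts and deposited them as whole numbers. The submitters' processing notes name STAR 2.7.2b on GRCm38.p6 after cutadapt 1.15, Trim Galore 0.6.0 and bcl2fastq 2.20.0.422, and edgeR and featureCounts with no version. Strand setting, multimapping rule and annotation release were not given in the sources used here. Reads of overlapping genes on opposite strands may therefore not be told apart.

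Gene symbols came from GENCODE vM21, which held 55154 of the 55335 gene identifiers. No library was a copy of another, since replicates differed by more than sampling noise (a chi-square of 3.46 to 24.2 per degree of freedom). Genes passing filterByExpr (19479) were scaled with TMM and fitted in edgeR 4.0.16 under R 4.3.3 by robust quasi-likelihood, in 1 model of all libraries with a coefficient per group. The 6 contrasts were tested 2-sided with Benjamini-Hochberg adjustment over all genes tested, and called at 0.05. CPM are TMM-scaled. Levels between genes are per kilobase of merged exons. The fitting code was tested on simulated data. Alternatives were other size factors, filters, DESeq2 1.42.0, limma-voom (limma 3.58.1), fits of 2 groups, the replicate number as a block and leaving out each library.

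The members and gene lists were chosen with earlier results of these data known. All 10 markers are named, with up to 4 called genes of smallest p from each of 3 astrocyte lists in each comparison with the empty vector, and the 3 genes nearest to each of the 3 markers with the widest range, among protein-coding genes of mean log2 CPM of at least 2 (prior count 2). Other names were chosen after their values were seen.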

Additional observations from a re-analysis of the deposited data

Results flagged for a closer look

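In 40 sets of 4 libraries (10 markers in 4 groups), the library farthest out was compared with the range of its group. Its gap to the nearest other library exceeded Dixon's critical value in 3 sets. Chance alone gives about 1 in 20. Aldoc stood at 57.9 CPM in library 3 of the empty vector, below the other 3 libraries, with a gap of 0.886 of the range. Gfap stood at 107 CPM in library 4 of the empty vector, above the others, with a gap of 0.840. S100b stood at 1.08 CPM in library 4 of the unmutated hairpin, above the others, with a gap of 0.957. The last library rests on 43 counts of S100b, against 20 to 24 in the others of its group.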

How the results depend on the processing

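The number of astrocyte markers called mostly stayed within 1.5 times that of the edgeR fit reported. The exceptions were the settings given here and the fits with a replicate block marked in the next paragraph. Without the low-count filter, 9 astrocyte markers instead of 3 were called for the unmutated hairpin against the empty vector, 8 instead of 2 for the 5-mutation hairpin against the empty vector, and 10 instead of 5 between these hairpins. Of the 39067 genes in these fits, 20%, 28.1% and 27.9% were called in the same order. In number these were 7818, 10965 and 10902 genes, against 7859, 10697 and 10771 of 19479 in the edgeR fit reported. The lower shares thus come with a larger set of genes, and are not comparable with those of the filtered fits. For the 5-mutation hairpin against the empty vector, a mean CPM of at least 1 gave 4 of 9 astrocyte markers tested, where 65.7% of all genes were called. limma-voom gave 6 of 10 there, where 55.2% of all genes were called. For the unmutated against the 5-mutation hairpin limma-voom gave 8 of 10, where 55.4% of all genes were called. Leaving out each library in turn gave 3 to 4 astrocyte markers for the unmutated, 5 to 7 for the 2-mutation and 2 to 3 for the 5-mutation hairpin against the empty vector. The shares of all genes called were then 35.3 to 37.8%, 59.1 to 60.8% and 51 to 55.2%. It gave 5 to 6 and 4 to 6 for the unmutated against the 2-mutation and 5-mutation hairpins, and 4 to 6 between the mutated hairpins. There the shares of all genes were 59 to 60.3%, 51 to 54.7% and 62.2 to 66.3%. The cause was not tested.

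The replicate numbers were not taken as pairs, since nothing says that a number marks a shared culture. Deviations of same-numbered libraries correlated at -0.0215 to 0.272, above 0.1 in 12 of 24 pairs. All 8 libraries correlated best with their own number in 3 of the 6 comparisons, and 5 or 6 of 8 in the others, a hint from the data and not the design. With a replicate block, the astrocyte markers called were 4, 7 and 4 against the empty vector, 6 and 7 for the unmutated against the mutated hairpins, and 6 between these, where 44.1%, 65.3%, 57.3%, 64.8%, 57.7% and 67.9% of all genes were called. The block and the loss of library 3 of the 5-mutation hairpin together, a setting chosen after seeing the data, gave 8 against the empty vector and 9 for the unmutated against the 5-mutation hairpin, where 57% and 58.5% of all genes were called. With the block 7 astroglial factors were higher with the unmutated hairpin than with the empty vector and 1 was lower.

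Differences that changed sign were all near 0 and not called. For Aldh1l1 with the unmutated hairpin, 0.03 became a range of -0.087 to 0.15 when each library was left out in turn. For S100b with the 5-mutation hairpin, -0.11 became a range of -0.39 to 0.14. Between the mutated hairpins, Slc1a3, at -0.10, ranged from -0.31 to 0.050 without 1 library and was 0.13 with the block and that library left out, where Aldh1l1 went from -0.16 to 0.034 and Gja1 from -0.03 to 0.29. Gja1 was at 0.12 by limma-voom and ranged from -0.29 to 0.19 without 1 library.

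Limits: 4 libraries in a group, with no statement that they are separate cultures, set the precision. S100b rests on 10 to 63 counts per library.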
